A study of Mus musculus with 60 samples.

Results

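Nr0b1, Dusp9 and Klhl13 are X-linked genes that connect the number of active X chromosomes to pluripotency and to MAPK signalling. They were taken by name as listed regulators of these processes, and they make up 3 of the 14383 genes listed in any library and 3 of the 490 X-linked genes. All 3 were listed in each of the 60 libraries. For each gene, total expression was given by its count of all reads, shown here as counts per 1000000 counted reads of the library (CPM). Reads over polymorphisms between the parental strains gave a separate count for the Cast/Ei (Cast) and the 129/Sv (129) allele, shown here as CPM of all allele-specific reads (allele CPM), so levels on these scales cannot be set against each other.

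In female cells Xist RNA coats the X chromosome that expresses it and genes are silenced in cis, which lowers the dose of X-linked genes. Before this happens both X chromosomes are active, and female mouse embryonic stem cells (ESCs) in this state are known for dampened MAPK signalling and for a slower exit from naive pluripotency than male cells. Dusp9 encodes a dual-specificity phosphatase that inactivates ERK, the last kinase of the MAPK cascade. Klhl13 encodes a substrate adaptor of the CUL3 ubiquitin ligase, and Nr0b1 (also called Dax1) encodes an orphan nuclear receptor that acts as a transcriptional co-regulator in naive ESCs.

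All ESC clones derived from the female hybrid line F1 2-1 (129/Sv-Cast/Ei), carried the M2rtTA transactivator at ROSA26 and a doxycycline-inducible Xist transgene built from a Cast BAC, and were kept with LIF, 1 µM of the MEK inhibitor PD0325901, which acts directly upstream of ERK, and 3 µM of the GSK3 inhibitor CH99021. Tg-E clones have the transgene at the endogenous Xist locus of the Cast X (clone 87 with 2 untreated and 2 treated libraries, clone 68 with 1 treated library). Tg-X clones 85, 86, 109 and 190 have it elsewhere on the Cast X in a line whose 129 X is part of a fusion of chromosomes X and 8 (8 untreated and 8 treated libraries), and the study's list of clones places that of 109 beside Xist. By the study, this line carries extra Cast chromosome 8 material and is partly monosomic for X-linked genes. In the Tg-X;8 group (203b, 267 and 339) the transgene lies on this fusion, called the fused 129 X here (6 untreated and 5 treated libraries). The study places it in chromosome 8 sequence of the fusion in 203b and 267, and gives no site for 339. Clone 267 also keeps a Tsix-Stop allele on the 129 X. Tg-12 clones 228, 273 and 38 have the transgene on chromosome 12, of which they carry an extra copy, and thus no transgene on either X (6 untreated and 6 treated libraries). Clone 160 (2 untreated and 2 treated libraries) is labelled with a transgene on the X but listed with chromosome 12 by the study, and was kept out of the groups. Like 267 it keeps a Tsix-Stop allele on the 129 X, to which the study ascribes the higher Xist level of both clones without doxycycline. Each clone is a single transgenic line, and all treated cells received doxycycline.

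ESC libraries held between 2284822 and 20637905 counted reads and between 731374 and 5830149 allele-specific reads. Xist was listed in 24 of 24 treated ESC libraries at 182 to 2160 CPM and in 15 of 24 untreated ones, at up to 123.5 CPM apart from clones 160 and 267, which reached 297 and 239.8 CPM. With doxycycline it was at 1286 to 2001 CPM in Tg-E, 509 to 2125 CPM in Tg-X, 508 to 1870 CPM in Tg-X;8 and 182 to 638 CPM in Tg-12 libraries. The share of reads that could be assigned to an allele fell into a lower class (27.9% to 30.5%, 18 ESC libraries) and a higher class (32.8% to 35.7%, 30 ESC libraries). The lower class was unevenly spread over the treatments, with 0 of 8 untreated and 4 of 8 treated Tg-X libraries, 1 of 6 and 3 of 5 Tg-X;8 libraries, and 2 of 6 and 3 of 6 Tg-12 libraries. Its part in the results was not tested, but fits with the class as a term are given where a call changed. In these bulk libraries, silencing in some of the cells and a lower level in all of them cannot be told apart. By RNA FISH, the study saw an Xist-coated chromosome in many but not all of the treated cells. The p-values measure the spread between libraries of the same clones. Within a clone at most 2 libraries stand on each side, so values without overlap can arise by chance. The share of all genes without overlap was not determined, and such statements only describe the values.

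The deposited coordinates of each member cover only part of the gene (GRCm38, chromosome X). The study summed allele-specific reads over all exonic polymorphisms of a gene, so the coordinates do not show where these reads fell. Those of Nr0b1 (chrX:86191775-86195947, plus strand) run from 86195351 to 86195944, in its last exon, with 245 coding and 349 non-coding bases. For Dusp9 (chrX:73639389-73643514, plus strand) they are the last exon of all 3 annotated transcripts, 73642084 to 73643514, with 326 coding and 1105 non-coding bases. For Klhl13 (chrX:23219271-23365161, minus strand) they run from 23235226 to 23236021, 796 bases of a coding exon that all 17 annotated transcripts share.

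Of the 3 genes, 2 matched the table of RefSeq promoters (GRCm38.p6), and Dusp9 did not. The 171 bases before the outermost annotated start of Nr0b1 (chrX:86191604-86191774, plus strand) and of Klhl13 (chrX:23365162-23365332, minus strand) are shown because the total expression of these genes changed in opposite directions in the fits of the Tg-X and of the Tg-X;8 group. Capitals mark CG dinucleotides.
Nr0b1: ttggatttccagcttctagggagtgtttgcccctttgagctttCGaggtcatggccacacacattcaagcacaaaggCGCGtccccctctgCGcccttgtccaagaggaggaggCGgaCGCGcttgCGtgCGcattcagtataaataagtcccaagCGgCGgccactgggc
Klhl13: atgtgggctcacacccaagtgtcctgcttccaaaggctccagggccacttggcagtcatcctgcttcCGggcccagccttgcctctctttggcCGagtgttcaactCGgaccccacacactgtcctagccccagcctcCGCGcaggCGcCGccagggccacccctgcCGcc
The Nr0b1 window held 11 CG dinucleotides, a number reached by 28.8% of 32851 promoter windows of this length, and the Klhl13 window held 8, reached by 36.8%. On either strand, the letters TATAAA were in the Nr0b1 and not in the Klhl13 window (8.45% of all windows), CCGGAAG was in the Klhl13 and not in the Nr0b1 window (5.85%), and CACGTG was in neither (4.7%).

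Dusp9 fell upon Xist induction in the Tg-X group and in the Tg-X;8 group, and both its alleles lost reads. It had the lowest adjusted p of all 5742 genes tested for total expression in Tg-X clones. In clone 85 its total expression was 994 and 975 CPM in the untreated and 378 and 395 CPM in the treated libraries. Clone 86 had 688 and 609 CPM without and 227 and 194 CPM with doxycycline. Every treated library of both clones was thus below every untreated one. Clone 190 went from 790.2 and 796 CPM to 264 and 309.8 CPM, and clone 109, the Tg-X clone with the lowest untreated level, from 365 and 307 CPM to 119.9 and 109 CPM. The groups did not overlap within any of the 4 clones, and the treated mean was 32.5% to 39.3% of the untreated one.

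In the Tg-X clones the fitted change in total expression of Dusp9 was -1.51 ± 0.07 (log2 ± SE, adjusted p = 1.6e-10), to 35.1% of the untreated level. Of the 3 genes all passed the test (adjusted p below 0.05) for total expression in Tg-X clones, where 41.0% of the 5742 genes tested and 62.2% of the 156 X-linked ones did. Dusp9 and Klhl13 fell, as did 20.0% of all and 55.1% of the X-linked genes, and Nr0b1 rose, as did 21.0% and 7.05%. Among these X-linked genes Dusp9 had the fourth lowest change in total expression, and their median was -0.30.

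Reads of the Dusp9 allele on the transgene X of the Tg-X clones had a lowest, median and highest value of 67.2, 186 and 266 allele CPM in 8 untreated libraries and of 10.3, 48.7 and 62.5 allele CPM in 8 treated ones. The groups did not overlap, and the change of -2.05 ± 0.11 (log2, adjusted p = 4.6e-10) left 24.1% of the reads of this allele. Its homologue, the 129 allele without a transgene in cis, went from 80.7, 229 and 301 to 21.4, 102 and 176 allele CPM, which overlap across clones but not within any of the 4 clones. It fell by 1.15 ± 0.15 on the log2 scale (adjusted p = 3.8e-05), to 45.0%, while the median X-linked gene changed by -0.06 on this allele. For the reads of a single allele, 2 of the 3 genes passed on the transgene side, against 24.1% of 5770 genes and 66.7% of the X-linked ones, and all 3 on the other, against 23.7% of 5765 genes and 24.3% of the X-linked ones.

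The loss of Dusp9 reads was therefore shared by its alleles. By clone, 18.2% to 27.6% of the reads of the transgene allele and 40.2% to 53.4% of those of the other allele were left in Tg-X clones, and the other allele accounted for 41.4% to 50.1% of all allele-specific Dusp9 reads lost. The loss was nevertheless unequal. The ratio of the transgene to the other allele changed by -0.90 ± 0.11 (log2, adjusted p = 5.9e-07; all 3 genes passed, as did 3.6% of 5770 genes and 50.6% of the X-linked ones). The share of reads from the transgene allele was 44.9% ± 1.44 (SD, n = 8) in untreated and 31.1% ± 5.87 (SD, n = 8) in treated libraries, and the mean difference within clones was -13.8 percentage points (two-sided exact permutation within clones, p = 0.00154, the smallest this design allows). Counts behind the shares were low in places: in the second treated library of clone 109 there were 40 allele-specific Dusp9 reads, of which 32.5% were from the transgene allele (Wilson 95% interval 20.1% to 48.0%, counting error only, and too narrow where a read covers several polymorphisms).

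The decrease was smaller with the transgene on the fused 129 X. Untreated libraries of clone 203b had 603 and 593 CPM of Dusp9 and the treated one had 328 CPM. Clone 267 went from 684 and 643 to 490.4 and 482 CPM, and clone 339 from 780.1 and 818 to 575 and 498 CPM. Here too the treated libraries lay below the untreated ones of the same clone, with 54.9% to 73.3% of the untreated mean left. The change was -0.60 ± 0.08 (log2, adjusted p = 0.0011), and all 3 genes passed for total expression in Tg-X;8 clones, against 6.5% of 6088 genes and 23.1% of 186 X-linked genes. Downward calls made up 2.83% of all and 21.0% of the X-linked genes, and upward ones, to which Nr0b1 belonged, 3.68% and 2.15%. Effects on total expression differed between the 3 clones for Nr0b1 (adjusted p = 0.0032), Dusp9 (0.024) and Klhl13 (0.028), as they did for 40.6% of all genes, while none of the 3 passed this test for the ratio of the alleles (0.229% of 6118 genes). Tg-X and Tg-X;8 clones differed in the change of Dusp9 by -0.91 ± 0.11 (log2, adjusted p = 2.5e-05, a comparison in which 0.616% of 5521 genes passed). These groups differ in both the strain of the transgene X and the site of the transgene, which cannot be told apart here.

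Both alleles of Dusp9 took part in this decrease as well. The transgene allele changed by -0.75 ± 0.11 (adjusted p = 0.0021; Klhl13 passed too, with 1.51% of 6103 and 18.0% of X-linked genes) and the other one by -0.49 ± 0.10 (log2, adjusted p = 0.023; Nr0b1 passed too, with 1.55% of 6118 and 2.69% of X-linked genes). In the higher class of assignable reads alone, neither allele passed (-0.56, adjusted p = 0.095, and -0.38, 0.19). The call for the other allele was also lost with the class as a term (-0.41, 0.069), with library sizes from all counted reads (-0.59, 0.057), without clone 203b (-0.42, 0.084) and without clone 267 (-0.51, 0.31), and it missed the threshold without 7 of the 11 single libraries (adjusted p = 0.051 to 0.076). With same-numbered libraries of a clone as a block it was lost as well (-0.49, adjusted p = 0.12). The ratio of the alleles moved by -0.28 ± 0.10 (adjusted p = 0.35), and the share from the transgene allele was 53.4% ± 4.96 (SD, n = 6) and 48.4% ± 3.33 (SD, n = 5). An unequal loss was thus not detected for Dusp9 in these clones. By clone, the transgene and the other allele kept 51.9% and 58.9% of their reads in 203b, 71.9% and 71.6% in 267, and 53.2% and 77.2% in 339, where the change in ratio was -0.53 ± 0.14 (log2, adjusted p = 0.12).

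Tg-E clone 87 had 493.4 and 437 CPM of Dusp9 without and 176 and 207 CPM with doxycycline, and the treated library of clone 68 had 195 CPM. These values did not overlap either, but the change of -1.32 ± 0.19 (log2, 41.1% of the untreated mean left) did not pass with 2 libraries a group (adjusted p = 0.076), where 0.0275% of 7282 genes passed. It passed with the class of assignable reads as a term (-1.32, adjusted p = 0.011). Without either untreated library or the second treated one it was -1.23 to -1.44. It also passed once clone 68 was added (-1.30, adjusted p = 0.028). That fit had no clone term, and clone 68 has no untreated library, so a difference between the clones cannot be told apart from treatment in it. The transgene allele had 121 and 98.2 allele CPM without and 21.7 and 21.0 with doxycycline, against 163 and 115 and then 91.0 and 85.7 allele CPM for the other allele. The allelic ratio fell by 1.70 ± 0.20 on the log2 scale (adjusted p = 0.00022), and Nr0b1 passed for this ratio too while Klhl13 did not, with 1.05% of 7318 genes and 31.0% of 229 X-linked genes passing. With the class as a term, the transgene alleles of Dusp9 (-2.38, adjusted p = 0.00094) and Nr0b1 (-1.54, 0.0015) passed. Without it, on single alleles 0 of 7315 genes passed on either side by edgeR's quasi-likelihood test, with 370 (transgene allele) and 259 (other allele) at an unadjusted p under 0.05, and 25 and 4 calls by DESeq2.

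Without a transgene on the X, no decrease of Dusp9 was seen. In Tg-12 clone 228 it had 795 and 947 CPM without and 960.0 and 929.7 CPM with doxycycline, in clone 273 817 and 725 against 834 and 756 CPM, and in clone 38 334 and 203 against 292 and 323 CPM. The groups overlapped in all 3 clones. The change was 0.11 ± 0.10 (log2, adjusted p = 0.84). None of the 3 genes passed in any of the 4 readouts in Tg-12 clones, where 0.117% of 5144 genes passed for total expression, 0.0387% and 0.0% of 5167 for the Cast and the 129 allele, and 0.0774% for their ratio. The Tg-12 clones served as the shared reference for the other groups: Dusp9 changed by -1.59 ± 0.11 more in Tg-X (adjusted p = 1.5e-09, 7.31% of 4844 genes passed), by -1.39 ± 0.20 more in Tg-E (0.0087, 0.355% of 5064) and by -0.69 ± 0.13 more in Tg-X;8 clones (0.025, 0.183% of 4918). Nr0b1 and Klhl13 did not pass in any of these 3 comparisons. Treated Tg-12 libraries had Xist at 182 to 638 CPM, mostly below the other groups, and its part in these differences was not tested. The difference of the Tg-X;8 clones missed the threshold whenever 1 of clones 228, 273, 203b, 267 or 339 was left out (adjusted p = 0.063 to 0.22), and that of Tg-E without 228 or 273 (0.12 and 0.072). With same-numbered libraries of a clone as a block, the difference of the Tg-X;8 clones missed it too (-0.68, adjusted p = 0.16). For the other allele alone, the Tg-X clones differed from the Tg-12 clones by -1.32 ± 0.27 (adjusted p = 0.012, 0.719% of 4867 genes, where the Tg-X;8 clones had 0.0607% of 4940 and the Tg-E clones 0.0% of 5087), and by -1.43, -1.27 and -1.31 (adjusted p = 0.056, 0.056 and 0.073) without 228, 86 or 190.

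**Figure D1:**
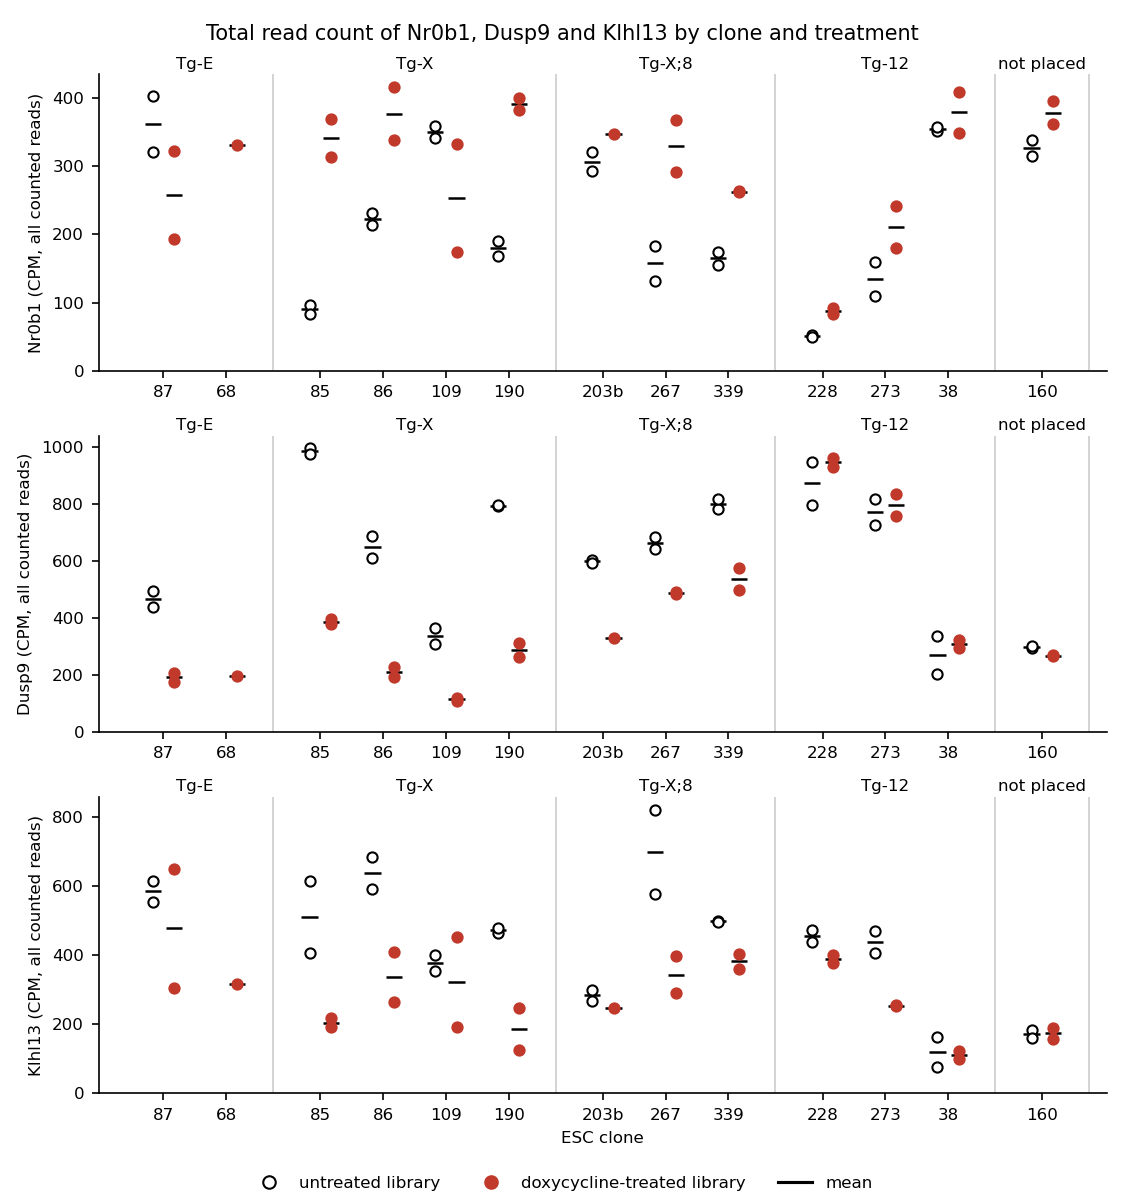
Total expression (CPM of all counted reads, linear axes from 0) of Nr0b1, Dusp9 and Klhl13 by ESC clone; open circles are untreated and filled circles treated libraries, and dashes are means. Treated Dusp9 values lie below the untreated ones in every clone with the transgene on an X and overlap them in the Tg-12 clones, whereas Nr0b1 is higher with doxycycline in 3 of 4 Tg-X clones and lower in clone 109.

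**Figure D2:**
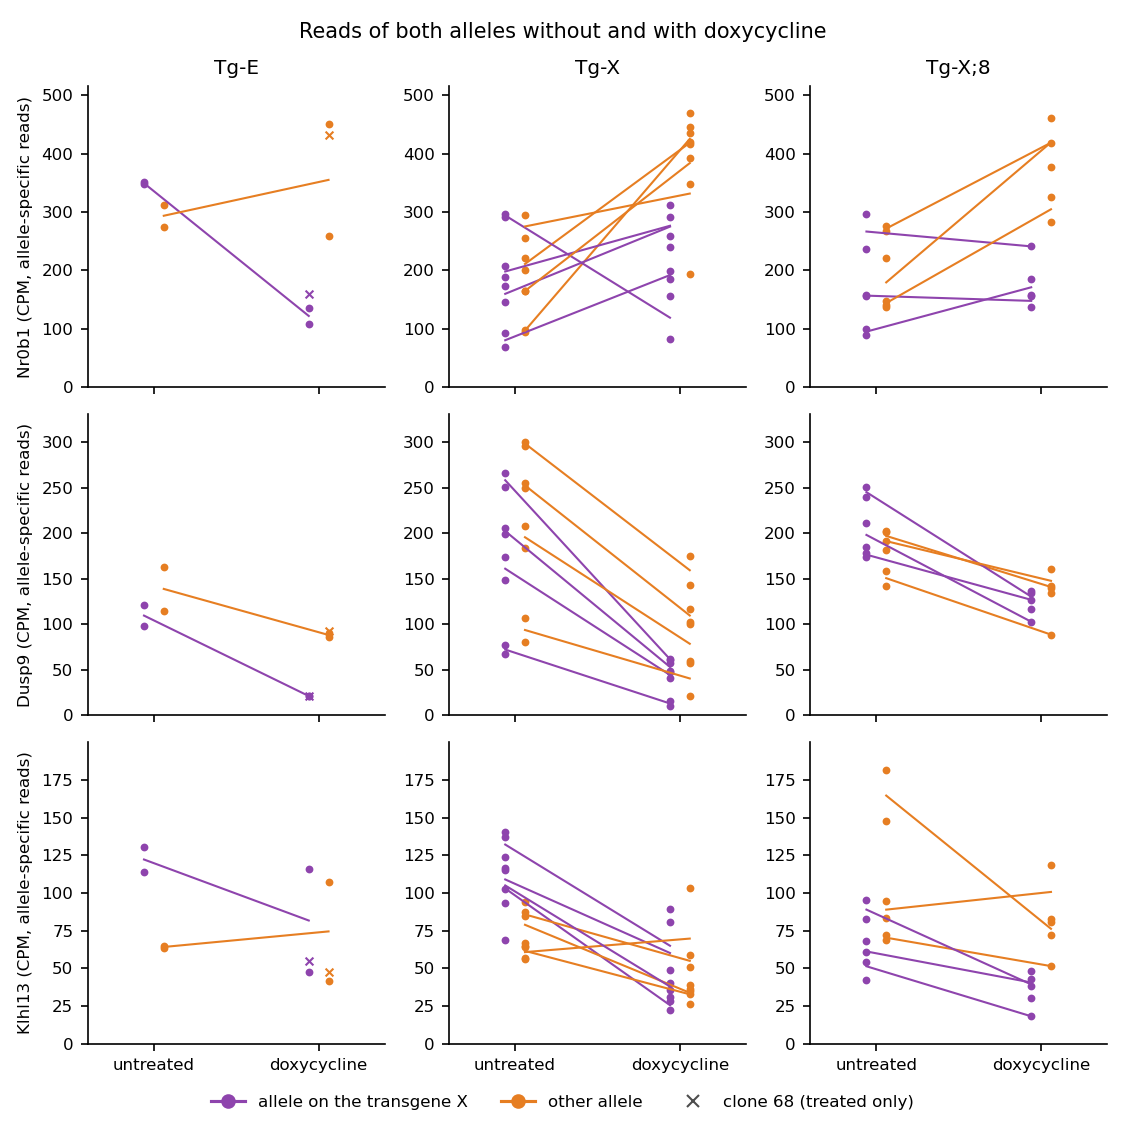
Reads (allele CPM) from the allele on the transgene X (purple) and the other allele (orange), untreated and with doxycycline; points are libraries, lines join clone means, and crosses are clone 68, which has no untreated library. Both Dusp9 alleles go down in all 8 clones shown with lines, the other Nr0b1 allele goes up in all 8, and Klhl13 goes down on the transgene allele in all 8.

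Klhl13 fell in total expression in Tg-X clones with more spread between libraries than Dusp9. Clone 85 had 404 and 613 CPM without and 216 and 191 CPM with doxycycline, clone 190 had 464 and 479 against 247 and 125 CPM, and clone 86 had 590.3 and 685 against 264 and 408 CPM. In clone 109 the groups overlapped, with 401 and 353 CPM without and 191 and 452 CPM with doxycycline. The change was -0.97 ± 0.19 (log2, adjusted p = 0.00072), to 51.1%. In clone 109, the treated library at 191 CPM was of the lower class of assignable reads and the one at 452 CPM of the higher class, and in Tg-E clone 87 the treated libraries at 304 and 650.0 CPM were of the lower and the higher class as well.

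The Klhl13 allele on the transgene X had a lowest, median and highest value of 68.8, 116 and 140.3 allele CPM without and 22.5, 37.9 and 89.6 allele CPM with doxycycline in Tg-X clones. It fell by 1.35 ± 0.21 (log2, adjusted p = 0.00021), to 39.3%. The other allele had 56.4, 65.6 and 93.8 allele CPM without and 26.5, 37.6 and 103 with doxycycline, which overlap, and its change of -0.66 ± 0.20 (log2, adjusted p = 0.025) was past the threshold only narrowly. It was not past it with the class of assignable reads as a term (-0.51, adjusted p = 0.17), nor without clone 85 (-0.46, 0.20), 86 (-0.68, 0.085) or 190 (-0.58, 0.13), nor without either treated or the second untreated library of 85 or the first untreated one of 190 (-0.56 to -0.61, 0.056 to 0.064). By clone, this allele kept 42.8%, 64.1% and 53.2% of its reads in 85, 86 and 190 and had 115% in 109.

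Before treatment, more Klhl13 reads came from the Cast than from the 129 allele. The Cast allele gave 60.8% ± 4.74 (SD, n = 8) of its allele-specific reads in untreated Tg-X, 60.8% ± 4.13 (SD, n = 6) in untreated Tg-X;8 and 67.8% ± 4.37 (SD, n = 6) in untreated Tg-12 libraries. The corresponding Cast shares were 44.9% ± 1.44, 46.6% ± 4.96 and 46.6% ± 0.954 for Dusp9, on the 129 side, and 48.6% ± 3.63, 54.4% ± 8.60 and 53.4% ± 6.30 for Nr0b1 (SD, same libraries). With doxycycline the share of Klhl13 from the transgene allele went to 49.1% ± 6.78 in Tg-X clones (SD, n = 8), a difference of -11.7 points within clones (exact permutation, p = 0.00463), and the ratio of the alleles changed by -0.70 ± 0.13 (log2, adjusted p = 0.00079). Loss of the stronger Cast allele thus left the alleles near balance in Tg-X clones. In Tg-X;8 clones, where the weaker 129 allele carries the transgene, its share went from 39.2% ± 4.13 (SD, n = 6) to 30.3% ± 5.96 (SD, n = 5), by -9.58 points (exact permutation, p = 0.0463), with a change in ratio of -0.44 ± 0.17 (log2, adjusted p = 0.38), which was -0.72 (0.026) without the second treated library of 267.

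Total expression of Klhl13 in Tg-X;8 clones was 268 and 299 against 247 CPM in 203b, 576 and 820.4 against 289 and 396 CPM in 267, and 499 and 497 against 403 and 360.0 CPM in 339. The groups did not overlap within a clone, but their distance was widest in 267. The change of -0.58 ± 0.14 (log2, adjusted p = 0.029) was -0.34 (adjusted p = 0.19) without this clone and -0.63 (0.053) with the class of assignable reads as a term. It also missed the threshold without any single library of 267 or the second untreated one of 203b (-0.44 to -0.60, 0.05 to 0.078). On the transgene allele it was -0.96 ± 0.18 (adjusted p = 0.012), and -0.85 (0.30) without 267 or -0.91 (0.052) without its second untreated library. On the other allele it was -0.46 ± 0.19 (adjusted p = 0.31), and -0.90 (0.012) without 339.

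Klhl13 had no call in Tg-E or Tg-12 clones. Clone 87 had 615 and 553 CPM without doxycycline against the treated values above (-0.33 ± 0.31, adjusted p = 0.81, and 0.12 without the first treated library). In Tg-12 clones, 228 had 472 and 439 against 400.3 and 377 CPM, 273 had 469 and 406 against 256 and 252 CPM, and 38 had 161 and 74.3 against 121 and 97.9 CPM. The treated values were lower without overlap in 228 and 273, and the change was -0.39 ± 0.16 (log2, adjusted p = 0.47). Without the second untreated library of clone 38, which stands apart from the first, it was -0.51 (adjusted p = 0.031), and without the whole clone -0.49 (0.04), so Klhl13 also fell in these settings where no X carried a transgene. The Cast allele changed by -0.57 ± 0.14 (adjusted p = 0.20), and by -0.61 (0.047) and -0.62 (0.038) in the same settings. The change in Tg-X clones differed from that in Tg-12 clones by -0.55 ± 0.28 (adjusted p = 0.25), and that in Tg-X;8 clones by -0.17 ± 0.23 (0.94), or 0.07 without 267.

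**Figure D3:**
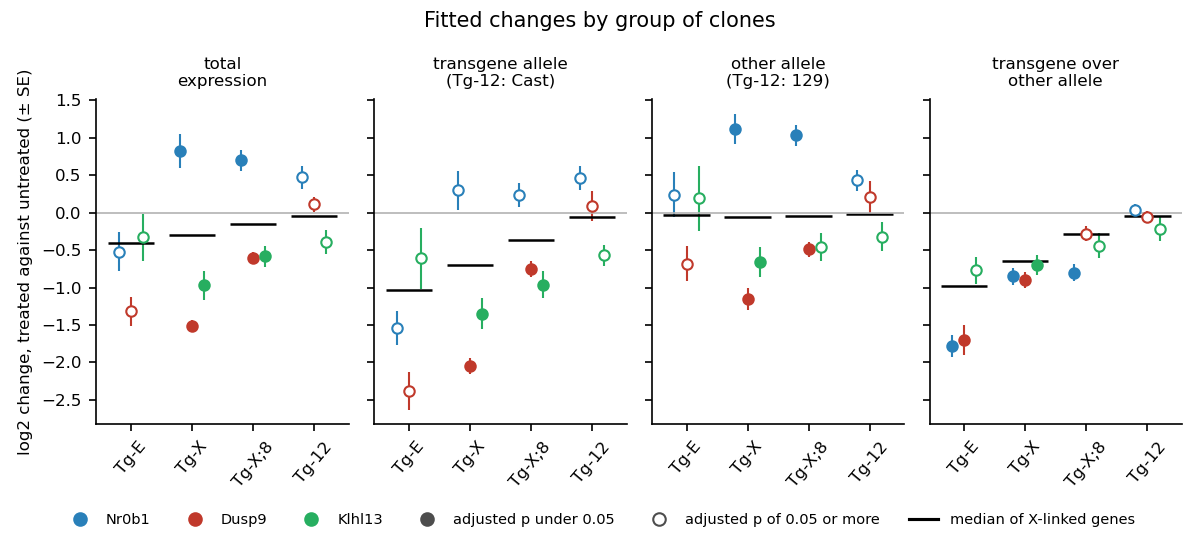
Fitted log2 changes (treated against untreated, bars ± SE) of the 3 genes in each group of clones for total expression, the transgene allele, the other allele and the ratio of the alleles; filled points passed the test, and black bars give the median of the X-linked genes. For total expression Dusp9 lies below 0 in the groups with the transgene on an X. Klhl13 lies below 0 in every group, at -0.33 in Tg-E and -0.39 in Tg-12 clones. Nr0b1 lies above 0 in Tg-X (0.82), Tg-X;8 (0.70) and Tg-12 clones (0.47) and below 0 in Tg-E clones (-0.52).

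Nr0b1 moved the other way. Its transgene allele lost ground to the other allele, but the other allele rose, and so did total expression, in the Tg-X group and in the Tg-X;8 group. In clone 85 it had 96.1 and 83.8 CPM in untreated and 314 and 369 CPM in treated libraries, and in clone 190 it had 190.1 and 169 against 401 and 383 CPM. Clone 86 had 231 and 213 against 416 and 338 CPM. These 3 clones had higher values in every treated library. Clone 109, with 359 and 342 CPM untreated, had 332 and 175 CPM with doxycycline, the only Tg-X clone with lower treated values. The change over all 4 clones was 0.82 ± 0.23 (log2, adjusted p = 0.0092), to 177% of the untreated level, the third highest of the 156 X-linked genes tested. It rested on clones 85 and 190: without 85 it was 0.46 (adjusted p = 0.13) and without 190 it was 0.72 (0.081), while it was 1.26 (1.1e-05) without 109. Effects differed between the 4 clones (adjusted p = 0.011, 1.79% of 5742 genes), with single-clone changes of 1.90 (0.00014), 0.78 (0.074), -0.48 (0.13) and 1.11 (0.006) in 85, 86, 109 and 190, where 14.2%, 3.8%, 27.7% and 18.5% of all genes passed.

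The other allele of Nr0b1 had a lowest, median and highest value of 95.4, 183 and 296 allele CPM in untreated and 194, 418 and 469 allele CPM in treated Tg-X libraries. It was higher on average in 4 of 4 clones, at 120% of the untreated level in 109, 198% in 86, 233% in 190 and 438% in 85, and rose by 1.12 ± 0.20 (log2, adjusted p = 0.00066). The median X-linked gene changed by -0.06 on this allele, on which Nr0b1 was the second highest. Its transgene allele had 68.6, 181 and 296 against 82.5, 220.0 and 312 allele CPM, a change of 0.30 ± 0.26 (log2, adjusted p = 0.43). Of this allele, 40.5% was left in 109, whereas it had 140% to 239% of the untreated level in 85, 86 and 190, and without 109 the change was 0.82 (adjusted p = 0.00022).

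The ratio of the Nr0b1 alleles fell nonetheless. It changed by -0.85 ± 0.11 (log2, adjusted p = 2.2e-06) in Tg-X clones, and the share of the transgene allele went from 48.6% ± 3.63 to 35.0% ± 6.56 (SD, n = 8 each), lower in 4 of 4 clones (mean difference within clones -13.6 points, exact permutation p = 0.00154, the smallest this design allows). The fall in ratio differed between the clones (adjusted p = 0.0092, 0.173% of 5770 genes), with -1.58 in 109, -0.88 in 85, -0.52 in 86 and -0.44 in 190. A rise in total Nr0b1 was therefore seen in cells in which its transgene allele was the weaker one in every treated library.

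With the transgene on the fused 129 X, total Nr0b1 was 321 and 292 against 347 CPM in 203b, 184 and 132 against 368 and 292 CPM in 267, and 156 and 174 against 262 and 263 CPM in 339. Treated libraries were above untreated ones in every clone, by 0.70 ± 0.14 (log2, adjusted p = 0.0099), and by 0.45 (adjusted p = 0.23) without 267. The other allele rose by 1.03 ± 0.14 (log2, adjusted p = 0.002), to 204%, with 154%, 234% and 211% in 203b, 267 and 339, and 0.90 (adjusted p = 0.099) without 267. The transgene allele changed by 0.24 ± 0.16 (adjusted p = 0.58), and by -0.11 without 267. The ratio of the alleles fell by 0.80 ± 0.11 on the log2 scale (adjusted p = 1e-05; the other members did not pass, with 0.948% of 6118 and 15.1% of X-linked genes), and the share of the transgene allele went from 45.6% ± 8.60 (SD, n = 6) to 32.0% ± 3.14 (SD, n = 5). Clone 267, with a Tsix-Stop allele and Xist at 223 to 239.8 CPM without doxycycline, had shares of 31.2% and 39.6% already before treatment (Wilson 95% intervals 26.7% to 36.0% and 34.3% to 45.2%).

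Tg-E clone 87 was closer to clone 109. It had 320.5 and 403 CPM of Nr0b1 without and 322 and 194 CPM with doxycycline, which overlap (-0.52 ± 0.26, adjusted p = 0.65), and clone 68 had 332 CPM. The transgene allele went from 348 and 350.5 to 136 and 108 allele CPM, and the other one from 274 and 313 to 450.3 and 260 allele CPM. Without the first treated library the fitted change of the other allele turned from 0.24 to -0.18. Between the alleles, the ratio fell by 1.78 ± 0.15 (log2, adjusted p = 9.4e-06). In clones 87 and 109 the treated libraries with the lower Nr0b1 level, 194 and 175 CPM, were of the higher class of assignable reads and the others of the lower class.

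Nr0b1 also had higher values with doxycycline in clones without a transgene on the X. In Tg-12 clone 228 it had 52.7 and 49.5 CPM without and 92.2 and 82.8 CPM with doxycycline, in 273 109 and 160.1 against 179.6 and 241 CPM, and in 38 352 and 357 against 349.6 and 409.5 CPM. Treated values were higher without overlap in 228 and 273, and the change of 0.47 ± 0.15 (log2, adjusted p = 0.33) was the highest of the 177 X-linked genes tested. It was 0.72 (adjusted p = 0.009) without clone 38, and 0.55 (0.037) without its second untreated library. Both Nr0b1 alleles had similar values for the change, 0.46 for Cast and 0.43 for 129, and their ratio moved by 0.03 (-0.06 without clone 273). The change in Tg-X clones differed from that in Tg-12 clones by 0.39 ± 0.33 (adjusted p = 0.50) and that in Tg-X;8 clones by 0.25 ± 0.22 (0.84), so a response of total Nr0b1 beyond that in the Tg-12 clones was not shown. In Tg-E clones it was lower by -0.95 ± 0.33 (0.29), or -1.20 (0.048) without clone 38. For the other allele these differences were 0.73 ± 0.28 (adjusted p = 0.24) and 0.60 ± 0.22 (0.74). Without clone 109 the difference of the Tg-X clones was 0.82 for total expression (adjusted p = 0.024) and 1.04 for the other allele (0.013).

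Clone 160 had 316 and 339 CPM of Nr0b1 without and 396 and 362 CPM with doxycycline. Its Dusp9 level was 292 and 299.9 against 268 and 266 CPM, and its Klhl13 level was 183 and 161 against 158 and 189 CPM. Treated values were higher for Nr0b1 and lower for Dusp9 without overlap and overlapped for Klhl13. With so few libraries a side this is a description only, and no test was made for this clone alone.

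Untreated clones differed widely in the 3 genes before Xist was induced. Nr0b1 spanned 7.08-fold, from 51.1 CPM in 228 to 362 CPM in 87, in the order 87, 38, 109, 160, 203b, 86, 190, 339, 267, 273, 85 and 228. Dusp9 spanned 3.66-fold, from 269 CPM in 38 to 985 CPM in 85, in the order 85, 228, 339, 190, 273, 267, 86, 203b, 87, 109, 160 and 38. Klhl13 spanned 5.92-fold, from 118 CPM in 38 to 698 CPM in 267, in the order 267, 86, 87, 85, 339, 190, 228, 273, 109, 203b, 160 and 38. Of 11 pairs of neighbours in these orders, the libraries of 6 pairs overlapped for Nr0b1, of 5 for Dusp9 and of 7 for Klhl13. Clones 228 and 85 had the lowest Nr0b1 and the highest Dusp9 levels, and 38, 109 and 160 had high Nr0b1 and the lowest Dusp9 levels. Over all 48 ESC libraries, which share clones and treatments, the log2 CPM of Nr0b1 and Dusp9 had a Pearson r of -0.67, that of Nr0b1 and Klhl13 -0.53, and that of Dusp9 and Klhl13 0.46.

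**Figure D4:**
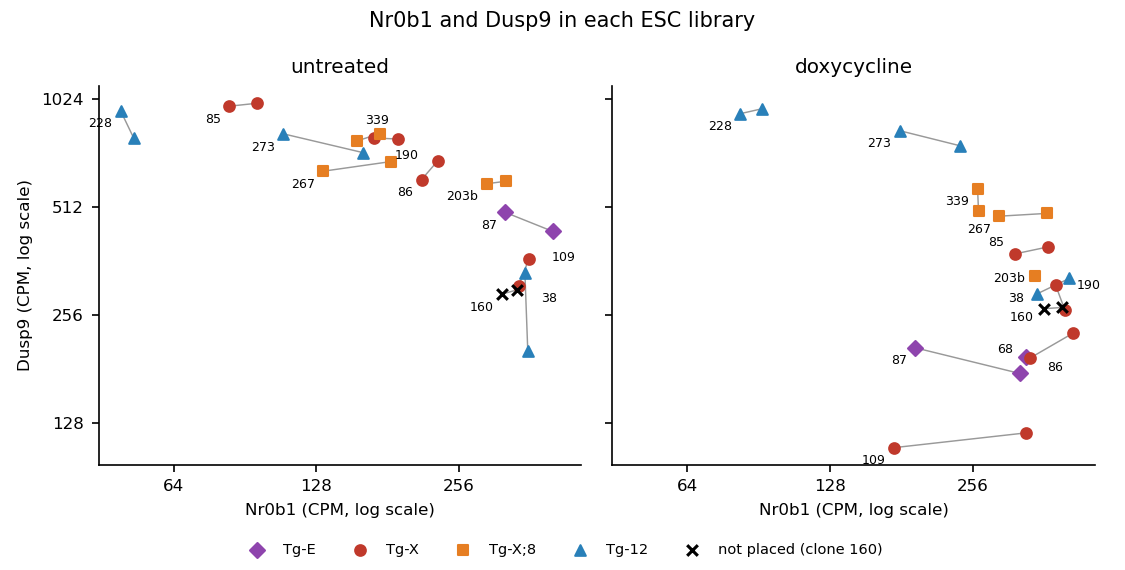
Total Nr0b1 against total Dusp9 (CPM, log axes) in each ESC library, untreated on the left and with doxycycline on the right; symbols give the group of clones, and lines join libraries of 1 clone. Untreated clones run from 228 and 85 (low Nr0b1, high Dusp9) to 38, 109 and 160 (high Nr0b1, low Dusp9), and with doxycycline the Tg-X clones 85, 86 and 190 lie further down and to the right.

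Genes most like each member over the 48 ESC libraries, of 4759 compared, were Trub2 (r = 0.94), Mrps18b (0.94) and Pepd (0.92) for Nr0b1, Strbp (0.91), Creg1 (0.91) and the X-linked Vbp1 (0.90) for Dusp9, and Calcoco2 (0.88), Tmem41b (0.88) and Ostm1 (0.85) for Klhl13. Of the X-linked genes listed next to the members, Pola1, which encodes the catalytic subunit of DNA polymerase alpha, was in every library. By the deposited coordinates, which cover part of a gene, it lies 7389900 bases after Nr0b1. In Tg-X clones its total expression fell by 0.36 ± 0.13 (log2, adjusted p = 0.028), its other allele changed by 0.11 ± 0.14 (0.62) and the ratio of its alleles by -0.79 ± 0.11 (1.7e-05). Pola1 thus had a change in ratio like that of Nr0b1 (-0.85) with the opposite direction in total expression. The genes on the remaining sides were listed in 1 to 28 of 60 libraries and were not fitted.

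Other genes of these pathways were followed as lists. Of 14 naive pluripotency genes, 13 were tested in Tg-X clones, where 9 rose and 0 fell (median log2 change 0.47, against 0.01 over all genes), with Tdh, a threonine dehydrogenase, at 0.97 ± 0.15 (adjusted p = 9.8e-05), and the transcription factors Tbx3 at 0.73 ± 0.12 (0.00021) and Esrrb at 0.63 ± 0.09 (2.6e-05). Of 8 general pluripotency genes 4 rose, with Utf1 at 0.85 and Sall4 at 0.71, and 1 fell, Dppa5a at -0.64. For comparison, 21.0% of all 5742 genes rose and 20.0% fell in these clones. The summed naive level was 2592 to 5064 CPM in the untreated and 4683 to 6139 CPM in the treated Tg-X libraries. In Tg-X;8 clones 2 of 14 naive genes rose, Tdh (0.55) and Tbx3 (0.41), and 1 fell, Dppa3 (-1.80), with a median of 0.22. Of all 6088 genes tested there, 3.68% rose and 2.83% fell. No gene of these lists passed in Tg-E or Tg-12 clones, where the naive medians were 0.15 and 0.13.

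Most targets and feedback regulators of ERK were not listed in every library. Of 17 such genes 2 were tested in Tg-X clones: Etv5, a transcription factor induced by ERK, rose by 0.81 ± 0.10 (log2, adjusted p = 1.2e-05), and Ccnd1, which encodes cyclin D1, fell by 0.40 ± 0.10 (0.0047). Of 4 tested in Tg-X;8 clones 2 rose, Etv4 by 0.95 ± 0.13 (adjusted p = 0.00092) and Etv5 by 0.37 ± 0.07 (0.0092). For comparison, 3.68% of all 6088 genes rose and 2.83% fell in Tg-X;8 clones. In Tg-X clones 2 of the 17 were listed in every untreated and 7 in every treated library, so their summed levels are not given. Of 16 components of the cascade, 11 were tested in Tg-X clones, where 41.0% of all genes passed, and 2 fell, Map2k1, the gene of MEK1, by 0.35 ± 0.10 (adjusted p = 0.0096) and Fgf4 by 0.24 ± 0.09 (0.032), and in Tg-X;8 clones only Fgf4 of 13 tested fell, by 0.26 ± 0.07 (0.039).

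Of 10 other X-linked genes with a part in pluripotency or MAPK signalling, 7 were tested in Tg-X clones. Rlim, an ubiquitin ligase that promotes Xist expression, fell by 0.46 ± 0.17 (log2, adjusted p = 0.034) and Nono, an RNA-binding protein, by 0.25 ± 0.09 (0.025), the list's median was 0.01, and the ratio of the alleles fell for Rlim (-1.05), Tfe3 (-0.61) and Nono (-0.42). Rlim also fell in Tg-X;8 clones, by 0.53 ± 0.12 (adjusted p = 0.018). In Tg-E clones the ratio fell for Rlim (-2.50) and Nono (-1.10). Of 6 partners of Klhl13 in the CUL3 ligase, 5 were tested in Tg-X clones: Nedd8, which encodes the modifier that activates the ligase, fell by 0.49 ± 0.09 (adjusted p = 0.00044) and the adaptor Klhl9 rose by 0.32 ± 0.10 (0.019), and 0 of 5 passed in Tg-X;8 clones. These 2 of 5 and the 2 of 7 X-linked genes are to be read against the 41.0% of all genes that passed in Tg-X clones. Of 9 primed genes, 2 were tested in Tg-X clones and Dnmt3b rose (0.88), and 3 in Tg-X;8 clones, where Dnmt3l rose (0.77), as did 3.68% of all 6088 genes.

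Few markers of other cell types were listed in ESCs. Of 9 neuron markers Tubb3 alone was listed in Tg-X libraries, at up to 98.7 CPM untreated and 104 CPM treated, the listed neural progenitor markers summed to at most 19.7 and 31.5 CPM, 0 of 6 primitive endoderm and mesoderm markers were listed without and 1, at up to 25.8 CPM, with doxycycline, and of 4 glia markers only Aldh1l1 was listed, at up to 45.6 and 61.3 CPM (0.37 ± 0.12, adjusted p = 0.016). Their part in the changes of the members was not tested. All 8 general pluripotency genes, among them Pou5f1, were listed in every library of the 4 groups of clones.

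Neurons were represented by 4 libraries with 25057343 to 32336068 counted reads, labelled 20 and 38, with a transgene on chromosome 12. The study names no MEK or GSK3 inhibitor in its neuronal medium, so their absence and differentiation cannot be told apart in comparisons with ESCs. Xist was at 597 and 1084 CPM in the untreated neuron libraries 20 and 38. In untreated ESCs of clone 38 it was not listed, and its part in the comparison of neurons with ESCs was not tested. Nr0b1 was at 37.2 and 17.8 CPM in the untreated neuron libraries, against 352 and 357 CPM in untreated ESCs of clone 38. It was 13.1-fold lower (log2 change -3.71 ± 0.44, adjusted p = 1.2e-07), a comparison in which 12.3% of 7515 genes passed and 6.72% passed downwards. Dusp9 had 320.2 and 223 CPM (0.03 ± 0.40, adjusted p = 0.97) and Klhl13 had 180.1 and 108 CPM (0.32 ± 0.41, adjusted p = 0.65), which overlap with the ESC libraries. Both signs turned (-0.20 for Dusp9, -0.04 and -0.06 for Klhl13) without neuron library 20 or the second ESC library. With doxycycline the neurons had 50.4 and 43.3 CPM of Nr0b1, 423 and 460.0 CPM of Dusp9 and 243 and 249 CPM of Klhl13, all above the untreated pair. Naive pluripotency genes were also higher in the treated neurons (1315 to 1341 CPM in sum, against 753 to 937 CPM untreated) and neural progenitor markers lower (128 to 164 against 231 to 569 CPM), and their part in these values was not tested. Of 14 naive genes 12 fell from ESCs to the untreated neurons. Neuronal markers differed between the neuron libraries. They summed to 184 and 901 CPM in the untreated and to 95.8 and 145 CPM in the treated ones, Stmn2 was listed in none, and Rbfox3, Snap25 and Syt1 were listed in no treated one, so the label of the treated neurons rests on few markers.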

How the data were processed

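RNA from ESC clones and from neurons was sequenced with single reads. Per the labels and the study's methods, the authors aligned the reads to both parental genomes (built on mm10) with TopHat2 2.0.6, kept the best unique alignments, counted bases of each strain at polymorphisms with SAMtools and summed them over the exons of a gene. A read over several polymorphisms can thus count more than once. The study also states a minimum coverage for a polymorphism to be used, so sites may drop out of the sums at low depth. This was not tested. HTSeq 0.6.1 is named in the submitters' processing notes and gave the counts of all reads. The deposited tables held raw counts of Cast, 129 and all gene reads, with no normalization, and the Cast/all fraction, which the authors calculated from the allele counts. Genes with fewer than 8 allele-specific reads were not listed, so a missing gene is not a 0. Strand-specific counting was not given in the sources used here.

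From these counts, treated and untreated libraries were compared in each group of clones by edgeR 4.0.16 quasi-likelihood tests (R 4.3.3) with TMM scaling and clone as a term, on genes listed in every library of the fit, with Benjamini-Hochberg adjustment over all of them (threshold 0.05). The ratio of the alleles was tested as the interaction of allele and treatment, and differences between groups as interactions of group and treatment. SE is the absolute log2 change divided by the square root of the F statistic. In Tg-12 clones the transgene and other allele stand for Cast and 129. Shares were compared by exact permutation within clones (Python 3.11.15, scipy 1.17.1). Alternatives included DESeq2 1.42.0, other scalings, filters and covariates, and leaving out libraries and clones. In simulated Tg-X data, 99.5% of 200 genes changed 2-fold were called for total expression, 96.5% for the transgene allele and 66.5% for the ratio. The simulated counts had a single spread for all genes and no differences between clones, so these rates do not carry over to the real libraries.

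Depth ranged from 2284822 to 20637905 counted reads in ESC and from 25057343 to 32336068 in neuron libraries. Replicate libraries differed beyond sampling noise in all 23 pairs compared (chi-square per degree of freedom 1.65 to 92.0). Named genes were the 3 members, Xist, X-linked neighbours, at most 3 genes per list and group that passed, and the 3 genes with the highest correlation to each member. The result of 1 gene of the lists is not reported here, although counts over its list include it. The members and lists were chosen with earlier results of these data known. Of 60 libraries, 8 of clone 292 had labels that give no single group, and with those of clone 160 they entered no main comparison.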

Additional observations from a re-analysis of the deposited data

Results flagged for a closer look

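In the 8 treated Tg-X libraries, the second one of clone 109 had 175 CPM of Nr0b1, the lowest value, with the nearest library at 314 CPM. Its gap of 0.577 of the group's range was above Dixon's critical value of 0.526. Of 36 groups of values examined this was the 1 flag, and chance alone flags about 1 in 20. The library was of the higher class of assignable reads and the other treated library of the clone, at 332 CPM, of the lower class.

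Dusp9 responded differently in groups of clones under the same treatment. Against Tg-12 clones its total expression changed by -1.39 more in Tg-E, by -1.59 more in Tg-X and by -0.69 more in Tg-X;8 clones, and its other allele by -1.32 more in Tg-X clones. Total expression of Dusp9 changed by -0.91 more in Tg-X than in Tg-X;8 clones, groups that differ in both strain and site of the transgene. All of these are log2 differences past the threshold of the interaction test in the main fits. That of Tg-X;8 against Tg-12 clones missed it without any 1 of 5 of the 6 clones. It also missed it with same-numbered libraries of a clone as a block (-0.68, adjusted p = 0.16). The comparisons with Tg-12 share the Tg-12 libraries.

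Responses also differed between single clones of 1 group. In Tg-X clones this held for Nr0b1, for total expression (adjusted p = 0.011) and for the ratio of its alleles (adjusted p = 0.0092). Among Tg-X;8 clones it held for total expression of Nr0b1 (adjusted p = 0.0032), Dusp9 (0.024) and Klhl13 (0.028), where 40.6% of all 6088 genes passed and 203b has a single treated library.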

How the results depend on the processing

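Results kept their direction and their side of the threshold in 443 of 485 alternative settings and in 675 of 744 in which a library or clone was left out, and the cause of the changes below was not tested. In Tg-E clones, with 2 libraries a group, DESeq2 gave calls for total Dusp9 (-1.32), its transgene allele (-2.39) and the transgene allele of Nr0b1 (-1.54). The replicate block and the class of assignable reads, which coincide in clone 87, gave -1.32, -2.38 and -1.54, all called, and so did adjustment over X-linked genes alone. With clone 68, in fits without clone as a term, total Dusp9 was -1.30, its transgene allele -2.40 and the Klhl13 ratio -0.74, all called. The other allele of Klhl13 turned to -0.02 in the same setting. Library sizes from all counted reads gave -2.43 for the transgene allele of Dusp9 (called), adjustment over X-linked genes called the Klhl13 ratio (-0.77), and exact permutation, which cannot go below p = 0.333 there, gave share differences of -28.1 (Nr0b1) and -24.9 (Dusp9) points. In Tg-X clones the other allele of Klhl13 lost its call with the class as a term (-0.51) and in the higher class alone (-0.52). In Tg-X;8 clones without 267, calls were lost for total Nr0b1 (0.45) and Klhl13 (-0.34), the transgene allele of Klhl13 (-0.85) and the other alleles of Nr0b1 (0.90) and Dusp9 (-0.51), and the transgene allele of Nr0b1 turned to -0.11. With the class as a term calls were lost for total Klhl13 (-0.63) and the other allele of Dusp9 (-0.41), in the higher class alone for both Dusp9 alleles (transgene -0.56, other -0.38), and the other allele of Dusp9 also with the replicate block (-0.49) and library sizes from all counted reads (-0.59). Adjustment over X-linked genes called the ratios of Dusp9 (-0.28) and Klhl13 (-0.44), and permutation called the Klhl13 share (-9.58 points). In Tg-12 clones DESeq2 called the Cast allele of Klhl13 (-0.58), and the Nr0b1 ratio turned to -0.00 with clone 160 and to -0.02 in the higher class. Against Tg-12, the replicate block turned total Klhl13 in Tg-E to -0.03 and ended the call of total Dusp9 in Tg-X;8 clones (-0.68).

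Replicate numbers were not used to pair the libraries in the main fits. Same-numbered libraries of a clone deviated together with r from -0.59 to 0.69, over 0.1 in 7 of 11 clones, so whether they are paired was not settled. The replicate block changed no call of a member beyond those named.

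Leaving out 1 library or clone at a time changed a call or direction for these log2 values, given as lowest to highest. In Tg-E clones these were Dusp9 total -1.44 to -1.21, Klhl13 total -0.97 to 0.12, Nr0b1 other allele -0.18 to 0.58, Klhl13 other allele -0.66 to 0.74. In Tg-X clones these were Nr0b1 total 0.46 to 1.26, Nr0b1 transgene allele 0.00 to 0.82, Klhl13 other allele -0.91 to -0.46. In Tg-X;8 clones these were Nr0b1 total 0.45 to 0.88, Klhl13 total -0.71 to -0.34, Nr0b1 transgene allele -0.11 to 0.44, Klhl13 transgene allele -1.23 to -0.85, Nr0b1 other allele 0.90 to 1.16, Dusp9 other allele -0.57 to -0.42, Klhl13 other allele -0.90 to -0.04, Klhl13 ratio -0.79 to -0.22. In Tg-12 clones (Cast as transgene allele) these were Nr0b1 total 0.29 to 0.72, Klhl13 total -0.51 to -0.17, Dusp9 transgene allele -0.06 to 0.25, Klhl13 transgene allele -0.64 to -0.49, Dusp9 other allele -0.01 to 0.36, Nr0b1 ratio -0.06 to 0.13, Dusp9 ratio -0.15 to 0.01. For Tg-E against Tg-12 effects these were Nr0b1 total -1.20 to -0.80, Dusp9 total -1.45 to -1.37, Klhl13 total -0.14 to 0.19. For Tg-X against Tg-12 effects these were Nr0b1 total 0.03 to 0.82, Nr0b1 other allele 0.42 to 1.04, Dusp9 other allele -1.49 to -1.09. For Tg-X;8 against Tg-12 effects these were Dusp9 total -0.80 to -0.59, Klhl13 total -0.39 to 0.07, Klhl13 other allele -0.27 to 0.55. For neurons against ESCs these were Dusp9 -0.20 to 0.32, Klhl13 -0.06 to 0.86. Without the second untreated library of clone 38 the Cast allele of Dusp9 turned to -0.06 in Tg-12 clones, and without the clone its 129 allele to -0.01 and its ratio to 0.01.

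Counts of genes that passed moved by more than 1.5 times in Tg-E clones (total expression 2, with 1 to 90 over all settings; transgene allele 0, up to 52 with the block; other allele 0, up to 4; ratio 77, 22 to 114), in Tg-X clones (transgene allele 1389, 901 without clone 85; other allele 1364, 792 without it; ratio 208, 106 with the class as a term), in Tg-X;8 clones (total expression 396, 47 without 267 and 1147 without 339; transgene allele 92, 13 and 227; other allele 95, 1 and 268; ratio 58, 24 in the higher class alone) and in Tg-12 clones (total expression 6, up to 309 without 38; Cast 2, up to 71; 129 0, up to 60; ratio 4, up to 18). The fit on the higher class alone could not be made for Tg-E clones, and the fit planned for members missing from a library was not needed. Depth limits the shares in the smallest libraries, and 2 libraries a group limit Tg-E.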

Other observations

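Clone 292 had 8 libraries whose labels give no single group. Total expression over these libraries had a lowest, median and highest value of 101, 176 and 406 CPM for Nr0b1, of 289, 429 and 641 CPM for Dusp9 and of 166, 290 and 721 CPM for Klhl13. The Cast allele gave 44.4% to 55.9% of the allele-specific reads of Nr0b1, 40.6% to 57.1% of those of Dusp9 and 60.2% to 68.1% of those of Klhl13. All 8 libraries had more Klhl13 reads from the Cast than from the 129 allele.

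In the 4 neuron libraries, too, the Cast allele gave 68.7% to 73.7% of the allele-specific reads of Klhl13. Of the genes of the other lists, Lin28a was 2.84 ± 0.43 (log2, adjusted p = 8.2e-06) higher in untreated neurons than in untreated ESCs of clone 38, and the X-linked Rlim was 1.53 ± 0.40 higher (adjusted p = 0.0078). The ERK targets Dusp4 (2.52 ± 0.44), Ccnd1 (2.09 ± 0.43) and Spred1 (1.85 ± 0.42) were higher as well, among 5 of 11 tested that rose, against 417 of all 7515 genes. The ESCs were kept with a MEK inhibitor that is not named for the neurons, and its part was not tested.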
